A study of Mus musculus with 12 samples.

Results

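Antiviral interferon-stimulated genes are the genes whose products cells make in response to interferon to sense, block or degrade foreign nucleic acid and virus particles. The set held 41 genes chosen by name, and 38 of them were measured by at least 1 probe set with a single gene symbol among 18193 genes measured in the same way. A probe set is a group of oligonucleotides on the array that reports 1 transcript. The 38 genes had 68 probe sets in all, 20 genes with 1 and 18 genes with more, and each gene was followed through the probe set with the highest mean over the arrays. Isg15, whose probe set is shared with Gm9706, and Oas1g and Ifi44, for which no probe set with a single symbol was listed, were not analysed here. By role the measured genes were 12 effectors that act on RNA or virus particles, 6 of 7 OAS family genes, 4 sensors of nucleic acid, 8 of 9 genes of ISG15, ubiquitin and ADP-ribose conjugation, 6 transcription factors and 2 of 3 other induced genes.

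Whole liver RNA of male Balb/c mice, 8 to 10 weeks old, was hybridized to 12 Affymetrix mouse arrays. The control 0 h group (3 arrays) is called untreated by the labels, whereas the methods of the study give PBS. The groups ConA 1 h, ConA 3 h and ConA 6 h (3 arrays each) received 20 mg/kg of concanavalin A, a plant lectin that activates T cells and causes immune-mediated hepatitis, into the tail vein. Controls were taken at 0 h and at no later time, so an effect of ConA and one of the time of day cannot be told apart, and no source says whether arrays of a group stand for separate animals, so p-values measure the spread between these arrays. The table held linear intensities, called signals below, with a median per array of 13.6 to 20.4. Between 17.5 and 23.2% of an array's probes were under 3.04, the value below which signals were set to that floor. The 11 hepatocyte markers summed to between 74705 and 88935 in all 12 arrays, which is a description and not a test of the label of whole liver.

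Interferons act through receptors and JAK kinases on STAT transcription factors. Type I interferons (alpha and beta) bring Stat2 and Irf9 into a complex that binds the interferon-stimulated response element (ISRE), and interferon gamma also acts through the gamma-activated site (GAS). Many antiviral genes carry an ISRE near their start and respond to both kinds of interferon, and interferon regulatory factors such as Irf7 and Irf8 are themselves induced and act on further genes. ConA hepatitis is driven by T and NKT cells, which secrete interferon gamma.

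Promoter sequence of the members was read from RefSeq (GRCm38.p6), in windows from 250 bases before to 50 after a gene's start. A window was found for 32 of the 41 genes, and Mx1, Mx2, Usp18, Parp14, Parp9, Dhx58, Zbp1, Oas2 and Oas1b had no entry. The ISRE core was searched on both strands as GAAA, any 2 bases and GAAA again, and stood in a window of 16 of the 32 members (50%), against 3.99% of 27025 genes in all and 3.44% of all 32851 windows. The letters TTCNNNGAA, which read the same on both strands and were searched as a GAS, stood in a window of 11 members (34.4%), against 9.55% of all genes and 8.3% of all windows. An ISRE match can overlap a GAS match, as it did in Bst2 and Ifitm3. Among measured members with a window, an ISRE match stood in 11 of 26 called higher at 3 h or 6 h and in 3 of 3 called at no time. A GAS match stood in 9 of the 26 and in 2 of the 3. These matches are descriptions of letters and not evidence of binding, and a link between match and course was not tested.

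The 250 bases before the start are shown for 5 members whose courses differed, 5′ to 3′ on the gene's strand, with matches to either motif in capitals. Ifit1 rose between 1 h and 3 h and then fell, and has 2 ISRE matches, starting 104 and 85 bases before the start. Irf8 rose by 1 h and has 2 GAS matches, at 171 and 153 bases before the start, and no ISRE match. Stat2, the other gene called at 1 h, has 1 ISRE match. Isg20, which rose late, has 1 GAS match at 73 bases. Oas1a, which was not called at any time, has 2 overlapping ISRE matches and 1 GAS match. For Irf8 and Isg20 the window with a match is shown, and the windows at their other listed starts held neither motif.
Ifit1, chr19:34640639-34640888, plus strand: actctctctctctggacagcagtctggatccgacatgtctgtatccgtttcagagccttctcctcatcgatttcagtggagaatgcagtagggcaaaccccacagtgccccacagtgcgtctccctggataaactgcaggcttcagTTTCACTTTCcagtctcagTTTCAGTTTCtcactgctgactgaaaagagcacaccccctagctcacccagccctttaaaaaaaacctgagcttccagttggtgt
Irf8, chr8:120736108-120736357, plus strand: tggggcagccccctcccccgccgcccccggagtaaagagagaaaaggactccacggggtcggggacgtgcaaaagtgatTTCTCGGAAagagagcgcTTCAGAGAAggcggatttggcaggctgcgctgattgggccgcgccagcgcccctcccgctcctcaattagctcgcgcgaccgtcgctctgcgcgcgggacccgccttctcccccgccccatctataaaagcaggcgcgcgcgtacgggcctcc
Stat2, chr10:128270248-128270497, plus strand: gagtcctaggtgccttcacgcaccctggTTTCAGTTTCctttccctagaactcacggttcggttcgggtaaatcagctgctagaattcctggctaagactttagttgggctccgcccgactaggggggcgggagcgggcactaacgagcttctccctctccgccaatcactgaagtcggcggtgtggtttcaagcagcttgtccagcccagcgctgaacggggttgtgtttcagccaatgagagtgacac
Isg20, chr7:78913174-78913423, plus strand: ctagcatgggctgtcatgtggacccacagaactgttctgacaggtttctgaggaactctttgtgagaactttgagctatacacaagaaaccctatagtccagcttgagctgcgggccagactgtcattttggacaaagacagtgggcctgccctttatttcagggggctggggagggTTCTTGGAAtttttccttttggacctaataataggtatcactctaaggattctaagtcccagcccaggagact
Oas1a, chr5:120907526-120907775, minus strand: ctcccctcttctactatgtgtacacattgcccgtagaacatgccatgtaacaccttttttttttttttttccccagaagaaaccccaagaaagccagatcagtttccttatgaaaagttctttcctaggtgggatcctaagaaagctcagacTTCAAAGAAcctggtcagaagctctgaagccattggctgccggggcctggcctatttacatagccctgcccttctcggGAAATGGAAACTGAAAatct

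Most of the antiviral genes rose between 1 h and 3 h after ConA and stayed high or rose further by 6 h. Groups were compared on the log2 scale with limma in 1 fit over all 12 arrays, and a gene is called higher or lower where its Benjamini-Hochberg adjusted p over the 18193 genes was under 0.05. At 1 h, 2 of the 38 members were higher than the control group, beside 1.5% of all genes, and at 3 h there were 29, beside 5.15%. At 6 h 33 members were higher, beside 15.4% of all genes. Limma called 0 members lower than the control group at any of the 3 times, where 0.148% (1 h), 14.7% (3 h) and 12.7% (6 h) of all genes were lower. At an unadjusted p under 0.05 the members lower at these times were also 0. Those higher at this p were 12 (1 h), 31 (3 h) and 33 (6 h). The share of all genes at an unadjusted p was not counted, so these counts have no background beside them. The F test over the 3 times, which asks whether a gene changed at any of them, called 33 members, beside 38% of all genes.

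The median log2 change of the members was 0.27 at 1 h, 1.47 at 3 h and 2.03 at 6 h, beside medians over all genes of 0.08, -0.21 and 0.02. After quantile normalization, which gives all arrays the same distribution of signals, the medians of the members were 0.15, 1.60 and 1.98 and those of all genes were -0.02, -0.05 and -0.03. Without any test, all 3 arrays at 3 h lay above all 3 control arrays in 32 members, beside 8.3% of all genes, and at 6 h this held for 34, beside 22.1%. At 1 h it held for 12 members, beside 10.6% of all genes.

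**Figure D1:**
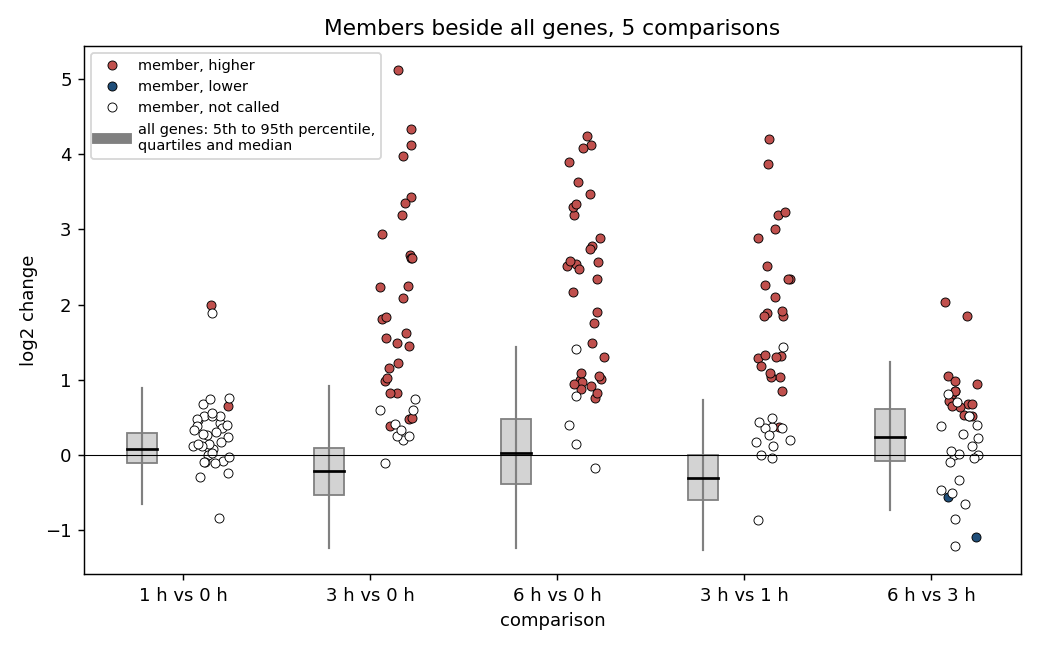
Log2 change of each of the 38 measured members (points) in 5 comparisons, beside the 5th to 95th percentile, quartiles and median of all 18193 genes (grey). Filled points were called higher (red) or lower (blue); at 3 h and 6 h against 0 h, 29 and 33 members were higher and the members' medians were 1.47 and 2.03.

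By time, 26 members were higher at 3 h and at 6 h but not called at 1 h, 2 were higher at all 3 times and 5 at 6 h only. Trim25 was higher at 3 h only, and Oas1a, Oas1b, Oas3 and Irf2 were called at no time. The highest group mean was that at 6 h in 26 members, that at 3 h in 11 and that at 1 h in 1, Oas1b. The shares of all genes in these time classes and with these peak times were not counted, so the counts only sort the members. From 1 h to 3 h limma called 25 members higher, beside 3.08% of all genes, and 0 lower, beside 19.9%; 1 member (Oas1b) was lower at an unadjusted p under 0.05. From 3 h to 6 h 15 members were higher, beside 18.8% of all genes, and 2 lower, beside 3.83%. With quantile normalization the last pair of counts was 13 higher and 5 lower. The median log2 change from 3 h to 6 h was 0.45 in the members and 0.24 over all genes. After quantile normalization these medians were 0.18 and 0.

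**Figure D2:**
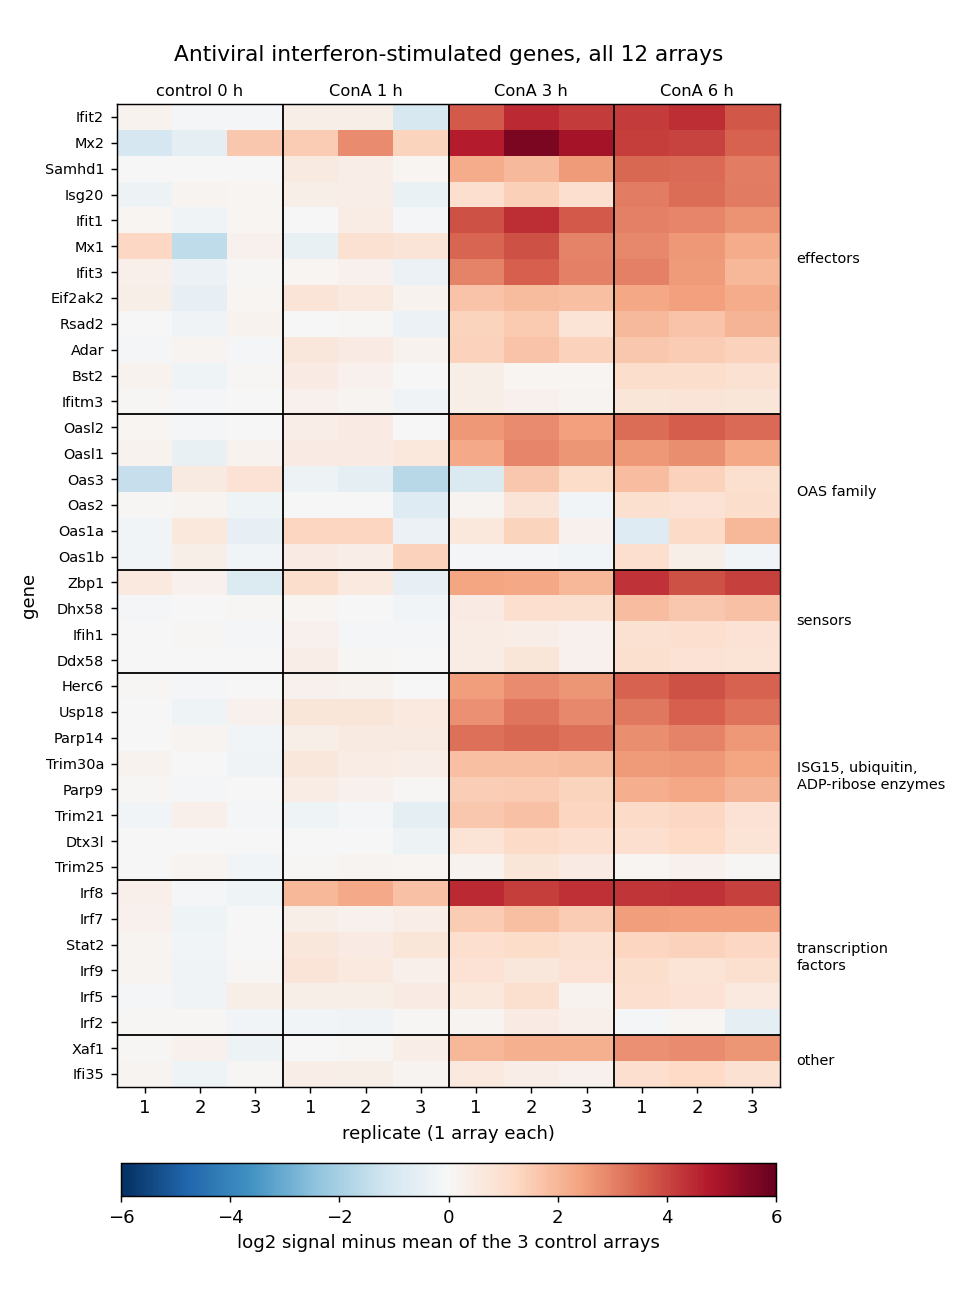
Log2 signal of the 38 measured members on each of the 12 arrays, minus the mean of the 3 control arrays, with genes grouped by role and ordered by their change at 6 h. Red is above and blue below the control mean; the 1 h arrays stay close to the controls for most genes, with Irf8 and Mx2 the reddest, and the OAS genes other than Oasl1 and Oasl2 stay pale.

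Of 12 effectors, 10 were higher at 3 h and all 12 at 6 h, with medians of 2.03 and 2.55 on the log2 scale. Mx2, a gene of the Mx family of GTPases, had signals of 4.35, 5.83 and 27.6 in control arrays. After ConA its signals were 25.3, 62.6 and 22.5 (1 h), 235, 447 and 283 (3 h), and 157, 146 and 102 (6 h). All 3 h and 6 h arrays were above all control and 1 h arrays, and control array 3 overlapped the 1 h group. The log2 change of Mx2 was 5.12 ± 0.67 (SE, n = 3 per group) at 3 h, 34.9-fold, with a limma adjusted p of 0.00087, and it ranked 27 by rise among all genes. At 6 h the change was 3.90 (adjusted p = 0.002). At 1 h it was 1.89 and not called (adjusted p = 0.3), and without control replicate 3 it was 2.71 and called (adjusted p = 0.034).

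The IFIT proteins bind foreign RNA and block its translation, and their genes lie close together on chromosome 19. Ifit2 had signals of 27.0, 21.3 and 21.99 in control arrays, and after ConA 29.9, 29.8 and 11.9 (1 h), 298, 522 and 428 (3 h), and 432, 501 and 307 (6 h). The 3 h and 6 h groups overlapped each other and lay far above the rest. The log2 change of Ifit2 was 4.12 ± 0.37 at both 3 h and 6 h, 17.4-fold (adjusted p = 0.0001 and 5.6e-05). Ifit1, named here after its values were seen as are the other genes outside the naming rule, had 106, 82.5 and 104 in control arrays, and after ConA 95.6, 133 and 90.1 (1 h), 1353, 2100 and 1252 (3 h), and 776, 747 and 625 (6 h). Every 6 h array lay between the control and the 3 h arrays. Ifit1 was 15.8-fold higher at 3 h and 7.36-fold at 6 h, and the fall from 3 h to 6 h was called, with a log2 change of -1.10 ± 0.22 (adjusted p = 0.0078). Ifit3 rose 9.14-fold by 3 h and was 5.81-fold above control at 6 h, and the difference between these times was not called (adjusted p = 0.16).

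Other effectors rose later or by less. Isg20, an exonuclease that degrades RNA, had signals of 51.3, 70.0 and 67.7 in control arrays, and after ConA 80.0, 83.4 and 46.8 (1 h), 125, 166 and 127 (3 h), and 522, 645 and 548 (6 h). The 6 h arrays stood above all others, and its log2 change from 3 h to 6 h, 2.04 ± 0.23 (adjusted p = 0.00085), was the largest of the 38 members. Samhd1, which hydrolyses the nucleotides that reverse transcription needs, was 4.74-fold higher at 3 h and 9.83-fold at 6 h. Its 5 probe sets were not alike: 3 of them were called higher at 3 h and at 6 h, and 2 were called at no time. The dimmest of the 3 was called higher at 1 h as well, with a log2 change of 2.03 (limma adjusted p = 0.014). Calls of single probe sets, here and below, came from a separate limma fit adjusted over the 34945 probe sets with 1 symbol. The kinase gene Eif2ak2 (PKR), which stops translation when double-stranded RNA is present, was 3.51-fold and 5.05-fold higher, the RNA editing enzyme gene Adar 2.81-fold at both times, and Rsad2 (viperin) 2.34-fold and 3.74-fold. The step of Rsad2 from 3 h to 6 h (adjusted p = 0.044) was lost in 13 of 18 alternatives, 10 of which left out 1 array.

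Bst2 (tetherin), which holds budding particles at the cell surface, and Ifitm3, which blocks fusion of virus with the cell, were higher at 6 h only. Bst2 had log2 changes of 0.19 at 3 h and 1.01 at 6 h (adjusted p = 0.0013). Ifitm3 had the highest control signals of all members, 4498, 4063 and 4431, and reached 7248, 7474 and 7276 at 6 h, a 1.69-fold difference with no overlap. Mx1, of which most laboratory mouse strains carry a defective allele, was dim in the control group (20.9, 2.24 and 10.6) and had 98.4, 124 and 69.5 at 3 h and 65.7, 52.5 and 40.97 at 6 h. Its log2 changes were 3.43 ± 0.64 (adjusted p = 0.0058) and 2.57 (adjusted p = 0.015), with control replicate 2 at the floor.

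**Figure D3:**
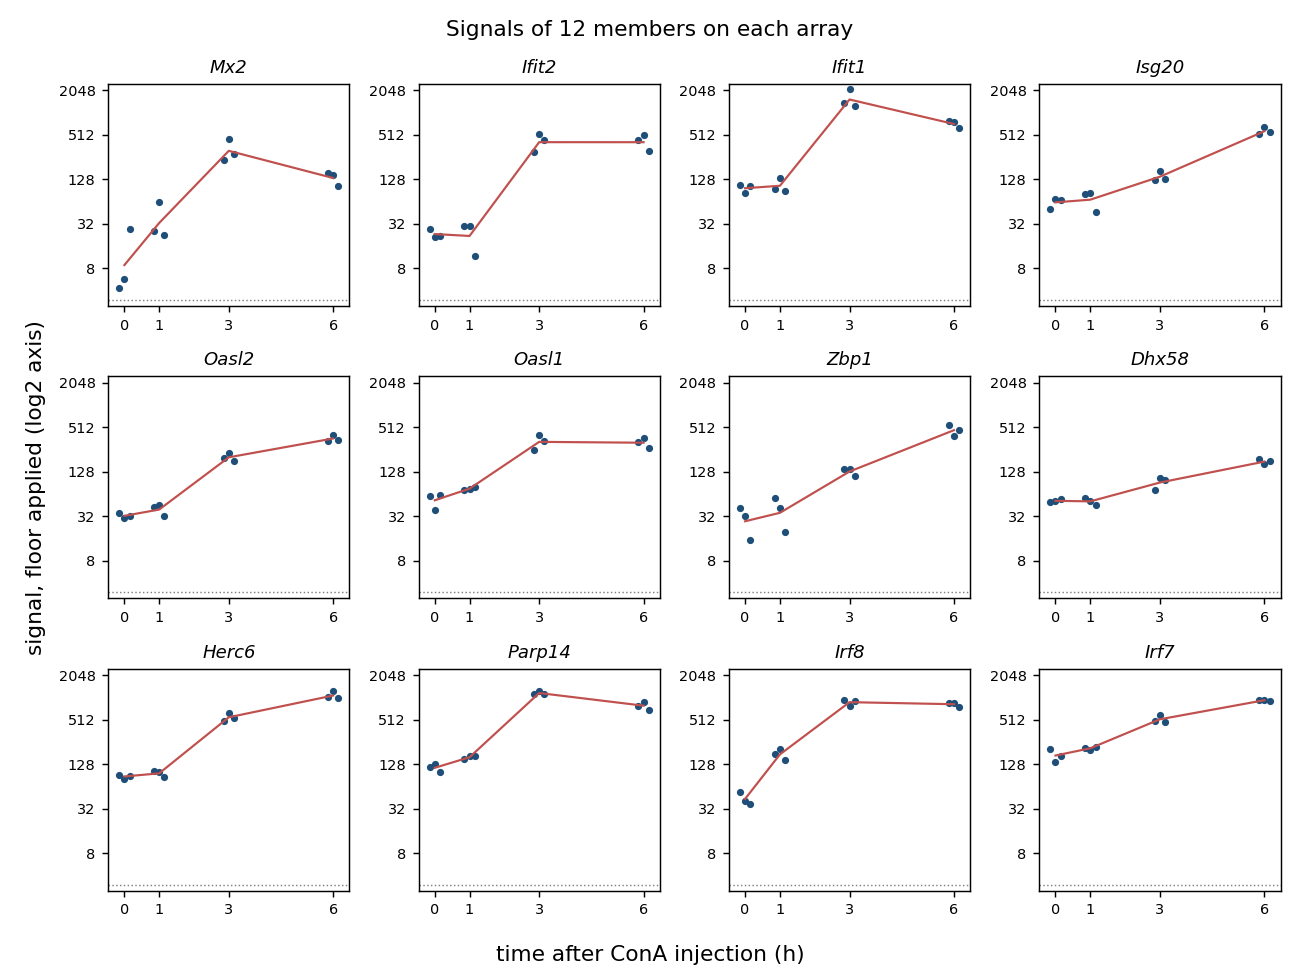
Signals of 12 members on each of the 12 arrays (points, 3 per time, set slightly apart) against hours after ConA injection, on a log2 axis, with a red line through the geometric group means and a dotted line at the floor of 3.04. Ifit1, Parp14 and Mx2 were highest at 3 h, Isg20, Zbp1 and Herc6 at 6 h, and Irf8 stood above the control arrays by 1 h.

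In the OAS family 2 genes were called higher at both 3 h and 6 h, Oasl1 and Oasl2. OAS enzymes make 2′-5′-linked oligoadenylates that switch on RNase L, which cuts RNA, and the OAS-like genes are their relatives. Oasl2 had signals of 35.3, 30.1 and 32.3 in control arrays, and after ConA 42.6, 45.2 and 32.0 (1 h), 195, 229 and 181 (3 h), and 332, 405 and 347 (6 h). The 3 h group did not overlap the 6 h group or the earlier ones. Its log2 change was 2.62 ± 0.15 at 3 h and 3.47 at 6 h, 11.1-fold (adjusted p = 6.9e-06 and 9.1e-07), and the step from 3 h to 6 h was called too (adjusted p = 0.0046). Oasl1, whose product restrains translation of Irf7, had 60.3, 39.3 and 61.8 in control arrays, and after ConA 73.0, 73.7 and 80.6 (1 h), 254, 400 and 335 (3 h), and 320, 370 and 265 (6 h). All of its 1 h arrays lay above all control arrays but the change was not called (0.52, adjusted p = 0.41), and its changes at 3 h and 6 h were 2.62 and 2.58.

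The 4 classical OAS genes were dim or changed little. Oas2 was called higher at 6 h only, with a log2 change of 0.96 (adjusted p = 0.03), and leaving out control replicate 1 or 3 or any 1 of the 6 h arrays ended that call (adjusted p between 0.058 and 0.1). Oas1a had 4.75, 8.20 and 3.71 in control arrays, and after ConA 12.8, 12.95 and 4.11 (1 h), 8.16, 13.1 and 6.34 (3 h), and 2.47, 11.5 and 21.2 (6 h). These groups overlapped throughout, and the 95% interval of the change at 6 h, from -0.84 to 2.41, leaves room for a rise as well as a fall. Oas1b, which restricts flaviviruses and is truncated in most laboratory strains, had 2.65, 4.45 and 2.10 in control arrays, and after ConA 4.85, 4.55 and 8.96 (1 h), 3.19, 3.29 and 3.09 (3 h), and 7.03, 4.41 and 2.68 (6 h). It lay near the floor in all groups. Oas3 had 3.70, 14.1 and 17.5 in control arrays, and after ConA 7.93, 6.57 and 3.04 (1 h), 5.23, 29.4 and 20.5 (3 h), and 35.2, 25.4 and 19.0 (6 h). All 6 h arrays of Oas3 were above the control arrays, with a log2 change of 1.41 and an interval from -0.29 to 3.11 that was not called (adjusted p = 0.22).

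The sensors of nucleic acid were all called higher at 3 h and 6 h, with Zbp1 far ahead. Zbp1, which binds nucleic acid of the Z form and can start necroptosis, had signals of 40.9, 32.6 and 15.6 in control arrays, and after ConA 56.5, 41.4 and 19.5 (1 h), 140, 138 and 111 (3 h), and 552, 390 and 470 (6 h). The 3 h and 6 h groups overlapped neither each other nor the earlier groups. Its log2 change was 2.23 ± 0.43 at 3 h (adjusted p = 0.0067) and 4.08 at 6 h, 17-fold (adjusted p = 0.00014), with a step of 1.85 from 3 h to 6 h (adjusted p = 0.014). Dhx58 (LGP2) had 49.3, 51.3 and 55.1 in control arrays, and after ConA 56.0, 51.4 and 46.0 (1 h), 73.5, 105 and 99.5 (3 h), and 189, 161 and 178 (6 h). It rose at both steps, the first of which was not called with the mean of its probe sets (adjusted p = 0.051), and was 1.76-fold above control at 3 h and 3.38-fold at 6 h. Of its 2 dimmer probe sets, 1 was called higher at 3 h and at 6 h too, with log2 changes of 1.26 and 3.03, and the other was called at no time.

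Ddx58 (RIG-I) and Ifih1 (MDA5), which bind viral RNA in the cytosol, started from higher signals and moved less. Ddx58 was 1.41-fold higher at 3 h (adjusted p = 0.034) and 1.84-fold at 6 h (adjusted p = 0.0012). Ifih1 was 1.3-fold higher at 3 h (adjusted p = 0.046) and 1.89-fold at 6 h (adjusted p = 0.00037). The calls at 3 h were weak: that of Ddx58 was lost without any 1 of the control arrays or of ConA 3 h replicates 1 and 2 (adjusted p between 0.065 and 0.098), and that of Ifih1 in 11 of 18 alternatives, among them each one without a control or 3 h array. The calls of both genes at 6 h held in all 18 alternatives.

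All 8 measured genes of ISG15, ubiquitin and ADP-ribose conjugation were higher at 3 h, and 7 of them at 6 h. Herc6, the mouse ligase that joins the ubiquitin-like protein ISG15 to its targets, had signals of 92.4, 81.6 and 89.0 in control arrays, and after ConA 105, 100.4 and 85.4 (1 h), 491, 628 and 542 (3 h), and 1029, 1231 and 1006 (6 h). The 3 h and 6 h groups were apart from each other and from the rest. Its log2 change was 2.65 ± 0.13 at 3 h and 3.63 at 6 h, 12.4-fold (adjusted p = 2.1e-06 and 4.4e-07), and its 4 probe sets were all called higher at both times. Usp18, which removes ISG15 and also blocks signalling at the type I interferon receptor, had 117, 96.7 and 139 in control arrays, and after ConA 191, 194 and 174 (1 h), 767, 1068 and 870 (3 h), and 1048, 1400 and 1103 (6 h). All of its 1 h arrays lay above the controls, but the 1.6-fold difference was not called (adjusted p = 0.12). It was 7.7-fold higher at 3 h and 10.1-fold at 6 h.

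Parp14, a mono-ADP-ribosyltransferase, went up and then part of the way down. Its signals were 117, 128 and 101 in control arrays, and after ConA 148, 166 and 164 (1 h), 1140, 1254 and 1124 (3 h), and 787, 895 and 700.1 (6 h). No 2 groups overlapped. The log2 change was 3.35 ± 0.12 at 3 h, 10.2-fold, and 2.79 at 6 h, 6.89-fold (adjusted p = 7.4e-07 and 8.3e-07), and the change from 3 h to 6 h was -0.57 ± 0.12 (adjusted p = 0.0092). At 1 h it was not called, but with the mean of its 2 probe sets it was (0.97, adjusted p = 0.03). Parp9 and Dtx3l, whose products form 1 complex, differed in course: Parp9 was 2.73-fold higher at 3 h and 4.49-fold at 6 h, and Dtx3l was 1.98-fold and 1.99-fold higher. Among the ubiquitin ligases, Trim30a was 3.57-fold higher at 3 h and 5.7-fold at 6 h, and Trim21, the cytosolic antibody receptor, 2.94-fold and 2.12-fold. Trim25, which adds ubiquitin to RIG-I, was 1.39-fold higher at 3 h (adjusted p = 0.038), a call lost in 9 of 18 alternatives, and by 6 h its log2 change was 0.15 (adjusted p = 0.5). With the mean of its 3 probe sets the change at 6 h was 0.55 and called (adjusted p = 0.0077), and the dimmest of them had 1.36. Arrays whose removal ended the call at 3 h were control replicates 1 and 3, ConA 1 h replicates 2 and 3, ConA 3 h replicates 2 and 3 and ConA 6 h replicates 1 and 3.

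Both members called at 1 h were transcription factors. Irf8, a factor of macrophages and dendritic cells that interferon gamma induces, had signals of 54.7, 41.2 and 36.9 in control arrays, and after ConA 174, 208 and 146 (1 h), 958, 783 and 913 (3 h), and 865, 870.2 and 751 (6 h). Each 1 h array lay above each control array and below each later one. The log2 change was 1.99 ± 0.18 at 1 h, 3.99-fold, 4.34 at 3 h, 20.2-fold, and 4.24 at 6 h, 19-fold (adjusted p = 0.00033, 8.2e-07 and 6.9e-07), and a second probe set was called higher at all 3 times as well. Stat2, a subunit of the factor that binds the ISRE, had 89.4, 69.5 and 78.9 in control arrays, and after ConA 128, 111 and 132 (1 h), 158, 172 and 151 (3 h), and 193, 204 and 185 (6 h). The 4 groups followed each other without overlap. It was 1.56-fold higher at 1 h (adjusted p = 0.022), 2.03-fold at 3 h and 2.46-fold at 6 h. The call at 1 h was lost in 8 of 18 alternatives, among them those without control replicate 2 or 3 or without ConA 1 h replicate 1 or 3, and its second probe set had a log2 change of -0.01 at that time. The step of Stat2 from 1 h to 3 h was called too, and that call was lost in 11 of 18 alternatives, 9 of which left out 1 array.

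Irf7, the factor that amplifies type I interferon transcription, had 203, 139 and 168 in control arrays, and after ConA 212, 198 and 221 (1 h), 486, 592 and 483 (3 h), and 955, 938 and 917 (6 h). It rose at both later steps, with log2 changes against control of 1.63 ± 0.14 and 2.48 (adjusted p = 7.4e-05 and 4e-06). Irf9, the DNA-binding partner of Stat2, was 1.76-fold higher at 3 h and 1.92-fold at 6 h; at 1 h it was 1.47-fold above control and not called, and without ConA 1 h replicate 3 its log2 change was 0.69 and called (adjusted p = 0.047). Irf5 was 1.77-fold higher at 6 h (adjusted p = 0.015), a call lost without control replicate 1 or 2 or ConA 6 h replicate 1, and with the mean of its 2 probe sets (0.39, adjusted p = 0.075), of which the second had a log2 change of -0.04. Irf2, a factor that opposes Irf1 at shared sites, had 293, 302 and 256 in control arrays, and after ConA 251, 248 and 293 (1 h), 317, 398 and 355 (3 h), and 270.2, 306 and 188 (6 h). It was called in no comparison, although all its 3 h arrays lay above the control arrays. Its change from 3 h to 6 h, -0.51, had an adjusted p of 0.07, and 0.04 without ConA 6 h replicate 2.

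Of the remaining members, Xaf1, which counters an inhibitor of apoptosis, had 117, 130.4 and 89.3 in control arrays, and after ConA 114, 115 and 148 (1 h), 440.5, 483 and 486 (3 h), and 737, 796 and 684 (6 h). Its log2 change was 2.08 ± 0.16 at 3 h and 2.73 at 6 h (adjusted p = 3.3e-05 and 4.4e-06), and its call from 3 h to 6 h was lost without ConA 3 h replicate 1 or ConA 6 h replicate 2, with quantile normalization and with the mean of its probe sets. Ifi35 had 955, 719 and 906 in control arrays, and after ConA 1133, 1077 and 959 (1 h), 1287, 1122 and 1022 (3 h), and 1740, 1958 and 1606 (6 h). All of its arrays after ConA were above all control arrays, and the change was called at 6 h only, 2.06-fold (adjusted p = 0.00051). With the mean of its 3 probe sets the change at 3 h was 0.49 and called as well (adjusted p = 0.02), and it was also called with quantile normalization, with an intensity trend and among only genes above the median of mean signal.

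From 3 h to 6 h the members took different courses. The 11 that were higher at both steps were Dhx58, Herc6, Irf7, Isg20, Oasl2, Parp9, Rsad2, Samhd1, Trim30a, Xaf1 and Zbp1, and 12 rose by 3 h with no call after it, among them Ifit2, Ifit3, Irf8, Mx2, Oasl1 and Usp18. Ifit1 and Parp14 rose and then fell. Bst2, Ifi35, Ifih1 and Ifitm3 were called only at the later step, and 9 members at neither. The shares of all genes with these courses were not counted. With quantile normalization Irf2, Trim21 and Trim25 were also lower at 6 h than at 3 h, and Rsad2 and Xaf1 were no longer called higher.

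The genes around the members were 80 measured of 100 listed, and limma called 11 (1 h), 42 (3 h) and 48 (6 h) of them higher, with 0, 2 and 3 lower. Of all genes, 1.5%, 5.15% and 15.4% were higher at these times, and 0.148%, 14.7% and 12.7% lower. At 1 h 1 of the 80 was lower at an unadjusted p under 0.05. Of the 10 interferon genes measured, Ifng, which encodes interferon gamma, was the only 1 called higher, and it was so at all 3 times. The other interferon genes listed had no probe set with a single symbol, so nothing can be said of them. Ifng had signals of 0.163, 4.83 and 0.982 in control arrays, and after ConA 27.7, 63.0 and 30.6 (1 h), 81.5, 68.5 and 117 (3 h), and 139, 74.2 and 76.4 (6 h). With 2 of the control arrays set to the floor, its log2 changes were 3.41, 4.61 and 4.70 (adjusted p = 0.0017, 6.1e-05 and 3.1e-05). Ifnb1, which encodes interferon beta, had 0.461, 12.1 and 0.881 in control arrays, and after ConA 1.49, 1.80 and 5.78 (1 h), 1.90, 7.38 and 4.90 (3 h), and 11.1, 4.92 and 9.47 (6 h). These values lay near the floor and overlapped, and the interval of the change at 6 h, from -0.60 to 2.07, was too wide to say whether Ifnb1 rose. Ifna4 was under the floor on all 12 arrays, and Ifna2 was lower at 6 h (-0.76, adjusted p = 0.0053).

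**Figure D4:**
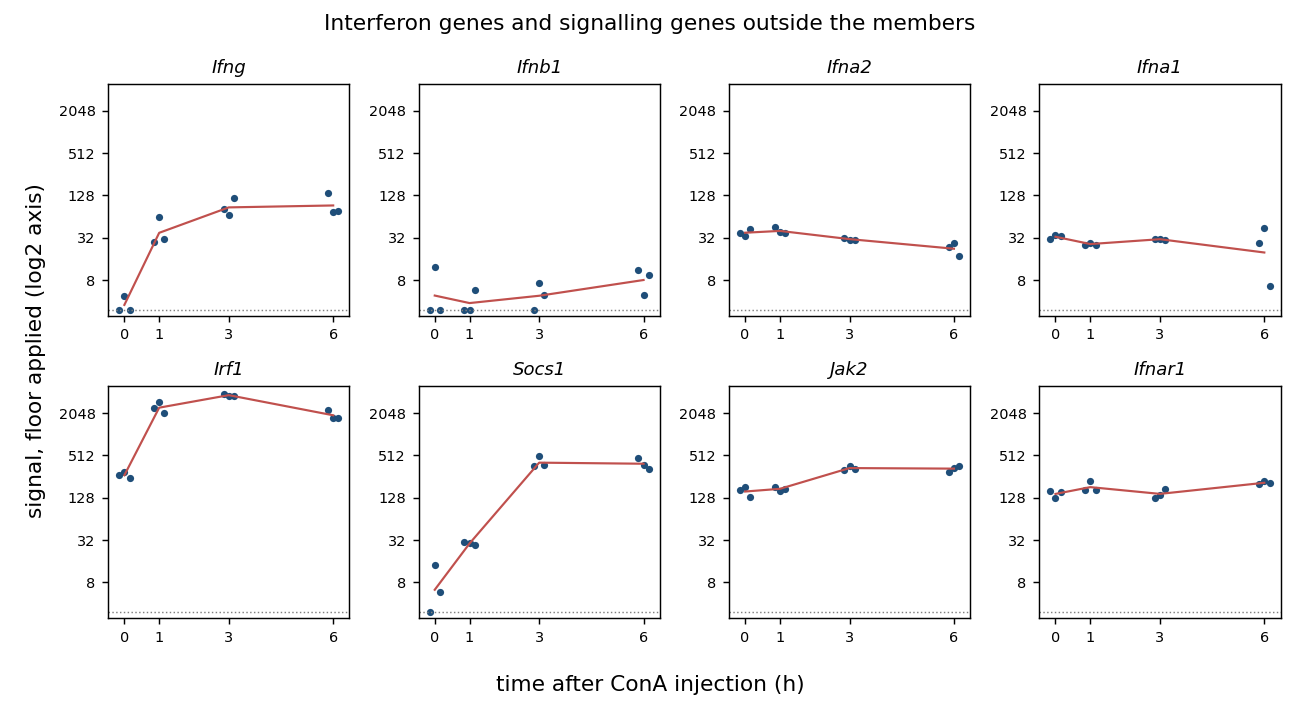
Signals of 4 interferon genes (top) and 4 signalling genes (bottom) on each of the 12 arrays against hours after ConA injection, on a log2 axis, with lines through geometric group means and the floor of 3.04 dotted. Ifng rose by 1 h with Irf1 and Socs1, while Ifnb1, Ifna2 and Ifna1 stayed below 64 in all arrays.

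Among receptors and JAK kinases, 3 of 9 were higher at 3 h and 5 at 6 h, with small changes. Jak2, the kinase of the interferon gamma receptor, had log2 changes of 1.11 at 3 h and 1.08 at 6 h, and Ifngr1 had 0.61 and Jak1 0.55 at 6 h. Of 9 other STAT and IRF factors and inhibitors, 3 were higher at 1 h (Irf1, Socs1 and Socs3) and 6 at 3 h and at 6 h. Irf1, an early target of interferon gamma, had 269.6, 293 and 242 in control arrays, and after ConA 2420, 2919 and 2079 (1 h), 3871, 3560 and 3647 (3 h), and 2291, 1731 and 1752 (6 h). It was thus far above control at 1 h, when 2 of the antiviral members were called. At an unadjusted p under 0.05, 12 members were higher, a count without a share of all genes beside it. Socs1, which inhibits JAK kinases, had log2 changes of 2.19 at 1 h, 6.01 at 3 h and 5.96 at 6 h, and Socs3 was called higher at each time, with 5.398, 4.95 and 5.11. Irf3 was lower at 6 h (-0.47, adjusted p = 0.012).

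Of 11 adaptors and kinases downstream of the sensors, 2 were higher at 1 h, 6 by 3 h and as many at 6 h. At 3 h Ikbke, a kinase that activates interferon regulatory factors, led with 3.38, followed by Sting1 with 3.09 and Myd88 with 2.55. At 6 h Sting1 led with 3.12, followed by Ikbke with 3.01 and Myd88 with 2.53. The ISG15 activating enzyme Uba7, the conjugating enzyme Ube2l6 and Pnpt1, an exoribonuclease found mainly in mitochondria, were all higher at 6 h, by 1.78, 1.34 and 1.61. Of 38 further interferon-stimulated genes outside the set, limma called 5 higher and 0 lower at 1 h, beside 1.5% of all genes higher. It called 24 higher and 2 lower at 3 h, then 27 higher and 1 lower at 6 h. The largest changes were those of Slfn4 (4.91 at 6 h), Slfn2 and Tap1, the peptide transporter of antigen presentation (4.12 at 6 h), and Trim14 was lower at 3 h (-1.49) and Trim26 at both times.

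Some markers of other cells moved over the same hours. Their counts stand beside 1.5% (1 h), 5.15% (3 h) and 15.4% (6 h) of all genes higher, and 0.148%, 14.7% and 12.7% lower. Beside these shares, 1 or 2 genes called in a short list say little about a cell type. In whole liver, more cells of a type and more RNA per cell cannot be told apart. Of 9 neutrophil markers 5 were higher by 1 h, 7 by 3 h and all 9 by 6 h, and their summed signal lay between 101 and 148 in control arrays, 865 and 1216 (1 h), 1542 and 2194 (3 h) and 1695 and 2642 (6 h). Of 6 monocyte markers 4 were higher by 3 h and all 6 by 6 h, and their sum, to which Fn1 of hepatocytes adds most, went from between 4378 and 4923 to between 6836 and 7214, with Chil3 at the floor in all control arrays. Of 10 T cell markers 4 were higher at 6 h (sum 75.3 to 95.3 in control arrays and 173 to 211 at 6 h), of 8 NK cell markers 2 (63.5 to 98.2 and 357 to 487, mostly Gzmb), and of 6 plasmacytoid dendritic cell markers 2 (175 to 208 and 221 to 298). Of 10 Kupffer cell markers 1 was higher and 3 lower at 6 h. Markers of other resident cells fell in part by then. Of 8 sinusoidal endothelial markers 4 were lower and 1 higher (sum 1242 to 2751 in control arrays and 1630.5 to 1755 at 6 h), of 7 stellate cell markers 3 were lower (1667 to 2593 and 1145 to 1202), and of 11 hepatocyte markers 3 were lower, Hal by most (-2.03). The part of these cells in the rise of the antiviral genes was not tested.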

How the data were processed

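The authors deposited 1 table of linear intensities of 45101 probes on 12 arrays. The labels name MAS5 version 5.0 and the study's methods RMA, and the sorted intensities differed between arrays, so they were read as MAS5-like. No new scaling was applied. A floor at the 20th percentile of all values (3.04) was set before log2 was taken. With 64 control probes left out, 45037 remained, of which 34945 carried 1 symbol, 932 several and 9160 none. Symbols were updated through the Entrez ID for 34741 and kept for 204, and the probe set with the highest mean stood for each of 18193 genes.

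The test was limma 3.58.1 in R 4.3.3, with 4 group means in 1 fit without an intensity trend, with Benjamini-Hochberg adjustment and a threshold of 0.05, and the F test stood for the methods' random variance model. Single probe sets were called in a separate fit of the same form, adjusted over the 34945 with 1 symbol. The number of arrays limits the precision. The fit was tested on simulated data. The members and lists were chosen with earlier results of these data known, so a list is described by counts beside all genes. Values on all arrays are given for the 2 largest changes of each role group and for members called at no time, and other names were chosen after their values were seen. For interferon genes and other lists up to 3 examples were named, plus Ifnb1, Ifna4, Irf1 and the genes called lower. Alternatives were quantile normalization, log2 of the signal plus 1 without a floor, only genes above the median of mean signal, an intensity trend, a replicate block, the mean of all probe sets of a gene and leaving out each array. Serum values, histology and RT-PCR were not analysed here.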

Additional observations from a re-analysis of the deposited data

Results flagged for a closer look

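Ifit1 and Parp14 were the members whose course turned between neighbouring times by a direct test. Each was higher at 3 h than in the control group and lower at 6 h than at 3 h, with log2 changes from 3 h to 6 h of -1.10 in Ifit1 and -0.57 in Parp14 (limma adjusted p = 0.0078 and 0.0092), and the 3 arrays at 6 h lay below the 3 arrays at 3 h in both genes. Over the 18 alternatives the adjusted p stayed between 0.0011 and 0.03 for Ifit1 and between 0.0024 and 0.032 for Parp14. Parp14's second probe set had a log2 change of -1.09 that was not called. Groups of 3 arrays are too small for a test of a single deviating array.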

How the results depend on the processing

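No called change reversed its direction under any alternative. At 1 h the members called higher went from 2 to 1 with quantile normalization, with log2 of the signal plus 1 and with the replicate block, to 4 with only genes above the median of mean signal, and to between 1 and 2 when an array was left out (1 when control replicate 2 or ConA 1 h replicate 1 was dropped), since the call of Stat2 ended. From 3 h to 6 h the members called lower went from 2 to 5 with quantile normalization and to 4 with the genes above that median. With the replicate block the counts were 29 higher at 3 h, 33 at 6 h, 25 from 1 h to 3 h and 14 higher and 3 lower from 3 h to 6 h. Array residuals of the same replicate number had correlations between -0.0054 and 0.041 over 18 pairs, and those of other numbers between -0.055 and 0.034 over 36, so the numbers were not taken to pair the arrays. Leaving out 1 array gave 26 to 29 members higher at 3 h, 31 to 33 at 6 h, 24 to 26 from 1 h to 3 h, 13 to 17 higher and 2 to 3 lower from 3 h to 6 h, and 31 to 33 in the F test. Of 3400 values of single members, 3281 kept their side of the threshold, 46 became called and 73 lost their call. Among the 3281 were 66 changes that were not called and whose sign differed from that of the main fit. Signals near the floor limit what can be said of Oas1a, Oas1b, Oas3 and Ifnb1; the causes of the other changes were not tested.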
